A study of Mus musculus with 6 samples.

Results

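Acute-phase genes, those whose expression changes within hours of injury or infection, were described in senescent and non-senescent mouse skin fibroblasts (MSFs). The set was 10 genes picked by name, namely Saa1, Saa2, Saa3, Lcn2, Hp, Alb, Orm1, Cp, Ptx3 and Steap4, of the 22162 genes in the table. They were chosen with the difference between treated and control MSFs known, because several were among the largest rises. Their treated and control values are therefore given as a description with no test. All 10 were found in the table, and 7 of them (Saa3, Lcn2, Hp, Alb, Cp, Ptx3 and Steap4) passed a filter on low values, together with 11877 genes in all. Lcn2 and Alb passed it solely through the 3 treated libraries, in which they were high. Saa3, Hp, Alb and Lcn2 had log2 fold changes of 6.53, 5.01, 4.22 and 3.96 between treated and control MSFs, and Cp one of 1.91, all with every treated library above every control library. Steap4 and Ptx3 overlapped between the groups, and Saa1, Saa2 and Orm1 were at or near 0 in all 6 libraries.

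MSFs were grown from digested dorsal skin of the FASST mouse on an FVB/N background, and the methods describe a line from 1 female mouse. All cells of both groups carried a tamoxifen-inducible Cre recombinase driven by the pro-alpha 2(I) collagen promoter and a ROSA26 allele that expresses p27Kip1 and GFP once its stop cassette is removed, and all were kept in 3% oxygen. Poly(A) RNA was sequenced from 3 libraries of MSFs given 10 µM tamoxifen, labelled senescent (TAM_1, TAM_2 and TAM_3), and from 3 given the ethanol vehicle, labelled non-senescent (EtOH_1, EtOH_2 and EtOH_3). The labels do not say whether the libraries came from separate cultures, so the spread between them may be technical. No treated cells without the allele were among the samples, so effects of tamoxifen itself and of the allele cannot be told apart.

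The deposited values are normalized counts per gene, which summed to between 14952367 and 17314953 per library. A fixed 16.2 normalized counts, from the mean of these sums, was taken as 1 c.p.m. for every library. The filter kept genes that reached 1 c.p.m. in 3 or more of the 6 libraries. A log2 fold change is the difference in mean log2(normalized counts + 1), TAM minus EtOH, with its standard error (SE) from limma over all genes tested, and the added 1 makes differences between low values smaller. Values of a few normalized counts stand for 1 or a few reads. Cdkn1b, the mouse gene for p27Kip1, had 1427, 3074 and 1853 normalized counts in the EtOH libraries and 1699, 1520 and 1630 in the TAM libraries (limma log2 fold change −0.32, adjusted p = 0.677), and whether transgene reads were counted on it is not given in the sources used here. All directions are stated for the libraries as labelled. Without a block for the replicate number 20 genes, or 0.168% of those tested, were called higher in TAM at an adjusted p under 0.05 and 9, or 0.0758%, lower. With the block the calls were 119 higher (1.00%) and 73 lower (0.615%), and leaving out any 1 library without the block left 0 to 6 higher and 0 to 9 lower.

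The acute phase response is the rapid change in secreted proteins that follows injury or infection. It is best known from the liver, where IL-1 and IL-6 type cytokines act through the transcription factors NF-κB, C/EBP and STAT3, but fibroblasts, macrophages and epithelia make some of the same proteins. Serum amyloid A proteins (Saa1, Saa2 and Saa3) are lipid-binding proteins that attract leukocytes, and Saa3 is the member known for expression outside the liver. Lcn2 (lipocalin 2) binds iron-loaded siderophores, Hp (haptoglobin) binds free haemoglobin, Cp (ceruloplasmin) oxidises iron and carries copper, and Steap4 is a membrane reductase of iron and copper. Ptx3 is a pattern recognition protein of the pentraxin family, Orm1 is alpha-1-acid glycoprotein, and Alb encodes albumin, the main plasma protein of the liver, which falls rather than rises in the acute phase.

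The promoters of 3 genes that were high in TAM are given beside those of Saa1 and Saa2, relatives of Saa3 that were near 0 in every library, since these 5 show where the C/EBP letters sit in members that were high in TAM and members near 0 in every library. Each is the 250 bases before the annotated start site, from RefSeq on GRCm38.p6, written 5′ to 3′ on the strand of the gene, and capitals mark every match to the C/EBP letters on either strand. The sequences lie at chr7:46715677-46715926 for Saa3 (minus strand), chr2:32387740-32387989 for Lcn2 (minus strand), chr5:90460620-90460869 for Alb (plus strand), chr7:46742981-46743230 for Saa1 (minus strand) and chr7:46751583-46751832 for Saa2 (plus strand). They are the reference sequence and not that of the FVB/N strain.
Saa3: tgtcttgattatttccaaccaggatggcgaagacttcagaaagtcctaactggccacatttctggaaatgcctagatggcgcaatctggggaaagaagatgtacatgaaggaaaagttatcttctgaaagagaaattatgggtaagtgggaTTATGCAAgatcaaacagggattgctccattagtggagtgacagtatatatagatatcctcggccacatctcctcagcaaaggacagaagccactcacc
Lcn2: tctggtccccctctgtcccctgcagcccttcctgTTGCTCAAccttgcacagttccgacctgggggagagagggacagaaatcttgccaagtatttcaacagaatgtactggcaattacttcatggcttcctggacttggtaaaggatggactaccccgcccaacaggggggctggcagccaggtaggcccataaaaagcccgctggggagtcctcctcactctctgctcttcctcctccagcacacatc
Alb: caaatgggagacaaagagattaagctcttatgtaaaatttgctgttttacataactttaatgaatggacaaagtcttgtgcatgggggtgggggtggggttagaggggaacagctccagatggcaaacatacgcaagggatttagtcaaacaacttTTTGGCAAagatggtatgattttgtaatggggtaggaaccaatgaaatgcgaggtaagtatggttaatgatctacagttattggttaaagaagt
Saa1: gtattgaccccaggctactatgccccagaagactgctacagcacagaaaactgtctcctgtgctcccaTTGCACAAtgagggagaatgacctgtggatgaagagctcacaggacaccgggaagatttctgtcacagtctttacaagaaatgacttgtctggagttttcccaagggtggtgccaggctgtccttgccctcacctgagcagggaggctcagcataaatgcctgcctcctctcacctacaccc
Saa2: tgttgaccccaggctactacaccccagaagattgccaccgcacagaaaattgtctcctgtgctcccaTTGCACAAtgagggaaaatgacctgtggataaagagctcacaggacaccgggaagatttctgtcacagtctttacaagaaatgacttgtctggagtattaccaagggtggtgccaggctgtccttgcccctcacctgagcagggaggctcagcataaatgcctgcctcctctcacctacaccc

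Promoter windows were found for 8 of the 10 genes, with no entry for Hp and Orm1, and Cp had windows for 2 start sites. Windows of 300 bases, from 250 before the start site to 50 after it, were searched on both strands for NF-κB (GGGANNNNCC), C/EBP (TTGCNNAA), STAT (TTCNNNGAA) and the TATA box (TATAAA). The C/EBP letters were found in 8 of the 8 genes, against 10.8% of the 32534 promoters in the RefSeq table. On the forward strand alone they were found in 4 of the 8, against 5.8% of all promoters. The NF-κB letters were found in Cp, Ptx3 and Steap4 (20.8% of all promoters), the STAT letters in Steap4 (8.3%) and the TATA letters in Cp and Steap4 (13.6%). At the TATA box of Cp the matches on the 2 strands overlapped. The NF-κB match of Ptx3 fitted the letters on both strands at the same bases, whereas no match overlapped that of another motif.

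The C/EBP match began 99 bases before the start site of Saa3, 94 before that of Alb and 216 before that of Lcn2. It began 182 bases before the start of Saa1 and 183 before that of Saa2, whose 250 bases differed from each other by 13 single-base edits. Those of Saa3 differed by 130 edits from Saa1 and by 132 from Saa2. Genes that were high in TAM and genes near 0 in every library both held the letters, and a match is a description of the sequence and not a shown binding site.

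**Figure D1:**
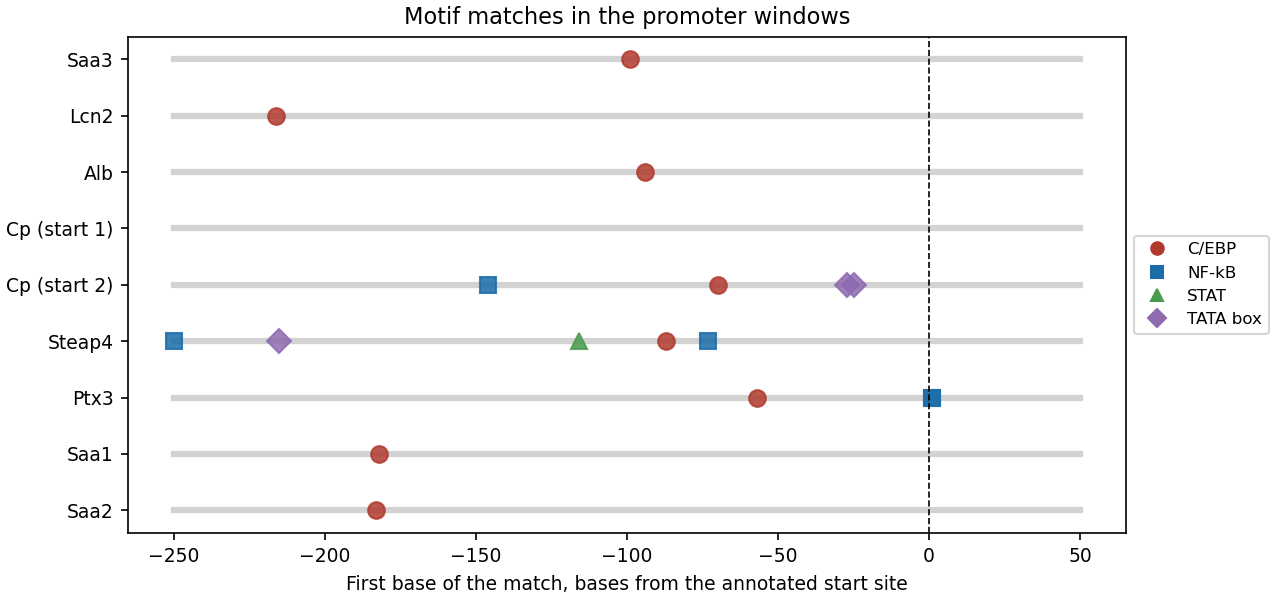
Motif matches in the promoter windows of the 8 genes with a RefSeq entry, with the first base of each match given in bases from the annotated start site (dashed line). Circles are C/EBP, squares NF-κB, triangles STAT and diamonds the TATA box, and every gene has a C/EBP circle, which for Cp is in the window of start 2.

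Saa3 (ENSMUSG00000040026) lies on the minus strand of chromosome 7 of mm9 from 53967368 to 53971046, with 4 exon blocks. It had 38.0, 86.8 and 21.1 normalized counts in EtOH_1, EtOH_2 and EtOH_3 and 11472, 5533 and 938 in TAM_1, TAM_2 and TAM_3. The groups did not overlap, and the lowest TAM library was 10.8-fold above the highest EtOH library. Means were 48.6 ± 34.1 and 5981 ± 5281 (SD, n = 3 each). The log2 fold change of 6.53 (SE 0.92, and 0.55 with the replicate block) ranked 1 among the 11877 genes tested. Within the same-numbered pairs of libraries the TAM value was 302-fold, 63.8-fold and 44.4-fold the EtOH value in pairs 1, 2 and 3. The TAM libraries themselves spread over a 12.2-fold range, the widest of the 7 genes that passed the filter. Leaving out TAM_1 gave a log2 fold change of 5.75 and leaving out TAM_3 one of 7.56. In bulk libraries such as these, more cells with the RNA and more RNA per cell cannot be told apart.

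The other serum amyloid genes of this cluster were near 0 in every library. The 4 Saa genes span 42.3 kb of mm9, in the order Saa3, Saa4, Saa1 and Saa2. Saa1 (ENSMUSG00000074115) had 0.680, 4.82 and 0 normalized counts in the EtOH libraries and 1.42, 0.820 and 0.580 in the TAM libraries. Saa2 (ENSMUSG00000057465) was listed at 0 in 5 libraries and at 2.42 in TAM_3. Saa4, a constitutive serum amyloid A, had means of 1.85 and 2.48. For Saa3, 1.9% of the 50-base windows of its transcript recur in Saa1. For the others the shares were larger, as 10.8% of those of Saa1 and 9.1% of those of Saa2 recur in other Saa genes. The low values of Saa1 and Saa2 are uncertain for that part of their transcripts. Their remaining windows recur in no coding transcript of another gene.

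Hp (ENSMUSG00000031722) lies on the minus strand of chromosome 8 from 112099030 to 112103072, with 5 exon blocks. It had 10.6, 20.9 and 1.62 normalized counts in the EtOH libraries and 324, 554 and 124 in the TAM libraries, so that every TAM library was at least 5.91-fold above every EtOH library. The log2 fold change was 5.01 (SE 0.87, and 0.32 with the block), at rank 3 of all genes tested. The differences within pairs 1, 2 and 3 were 4.80, 4.66 and 5.57 on the log2 scale. Their SD of 0.49 was below the SD of log2 values among the EtOH libraries (1.57) and among the TAM libraries (1.09). The same held for Lcn2 and Ptx3. For Saa3, Alb and Cp the pair SD was above that of the EtOH libraries and below that of the TAM libraries. For Steap4 it was above both.

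Lcn2 (ENSMUSG00000026822) lies on the minus strand of chromosome 2 from 32240153 to 32243317. It had 5.94, 8.52 and 2.50 normalized counts in the EtOH libraries, all below 1 c.p.m., and 110, 112 and 68.8 in the TAM libraries. Its TAM libraries lay within a 1.63-fold range, the narrowest of the 7 genes. Its log2 fold change was 3.96 (SE 0.50, and 0.36 with the block), at rank 20, with pair differences of 4.00, 3.57 and 4.32.

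Alb (ENSMUSG00000029368) lies on the plus strand of chromosome 5 from 90889915 to 90905629, with 15 exon blocks. It had 4.38, 5.66 and 3.38 normalized counts in the EtOH libraries and 147, 147 and 45.4 in the TAM libraries. TAM_1 and TAM_2 were level and TAM_3 lay below them, and the groups did not overlap. The log2 fold change was 4.22 (SE 0.56, and 0.43 with the block), at rank 12, with pair differences of 4.78, 4.48 and 3.40. None of the 50-base windows of Alb, Hp or Lcn2 recurs in the transcript of another gene.

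Cp (ENSMUSG00000003617), on the plus strand of chromosome 3 from 19857054, varied little among the vehicle-treated libraries. Its normalized counts were 129, 110 and 126 in the EtOH libraries, with a coefficient of variation of 8.44%. In the TAM libraries they were 1088, 384 and 231, all above the EtOH values. The log2 fold change was 1.91 (SE 0.52, and 0.43 with the block), at rank 198, and the pair differences of 3.07, 1.80 and 0.87 varied with an SD of 1.10. Without TAM_1 the log2 fold change was 1.29. Hps3, which runs the opposite way, shares 1.1% of the exon bases of Cp.

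Steap4 (ENSMUSG00000012428; chromosome 5) and Ptx3 (ENSMUSG00000027832; chromosome 3) overlapped between the groups. Steap4 had 63.0, 323 and 22.0 normalized counts in the EtOH libraries and 1134, 188 and 597 in the TAM libraries. It was higher in TAM in pairs 1 and 3, by 4.15 and 4.70 on the log2 scale, and differed by −0.78 in pair 2. Its log2 fold change was 2.69 (SE 1.02), and it was 3.72 without EtOH_2, 2.11 without TAM_1 and 1.81 without EtOH_3. Ptx3 was the most abundant gene of the set in EtOH, with 2946, 1164 and 831 normalized counts, and had 5758, 982 and 1347 in the TAM libraries. Its pair differences were 0.97, −0.24 and 0.70. The log2 fold change of 0.47 (SE 0.73) became −0.30 without TAM_1, so that 1 library set its sign.

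Orm1 (ENSMUSG00000039196) was listed at 0 in all 6 libraries, and 20.4% of its 50-base windows recur in Orm2 or Orm3. These paralogs were low too, with 1.86 to 12.5 normalized counts for Orm2 and at most 1.94 for Orm3. Reads of the shared windows may be split between such copies, so the value of 0 is uncertain for that part of the transcript. The remaining windows of Orm1 recur in no coding transcript of another gene.

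**Figure D2:**
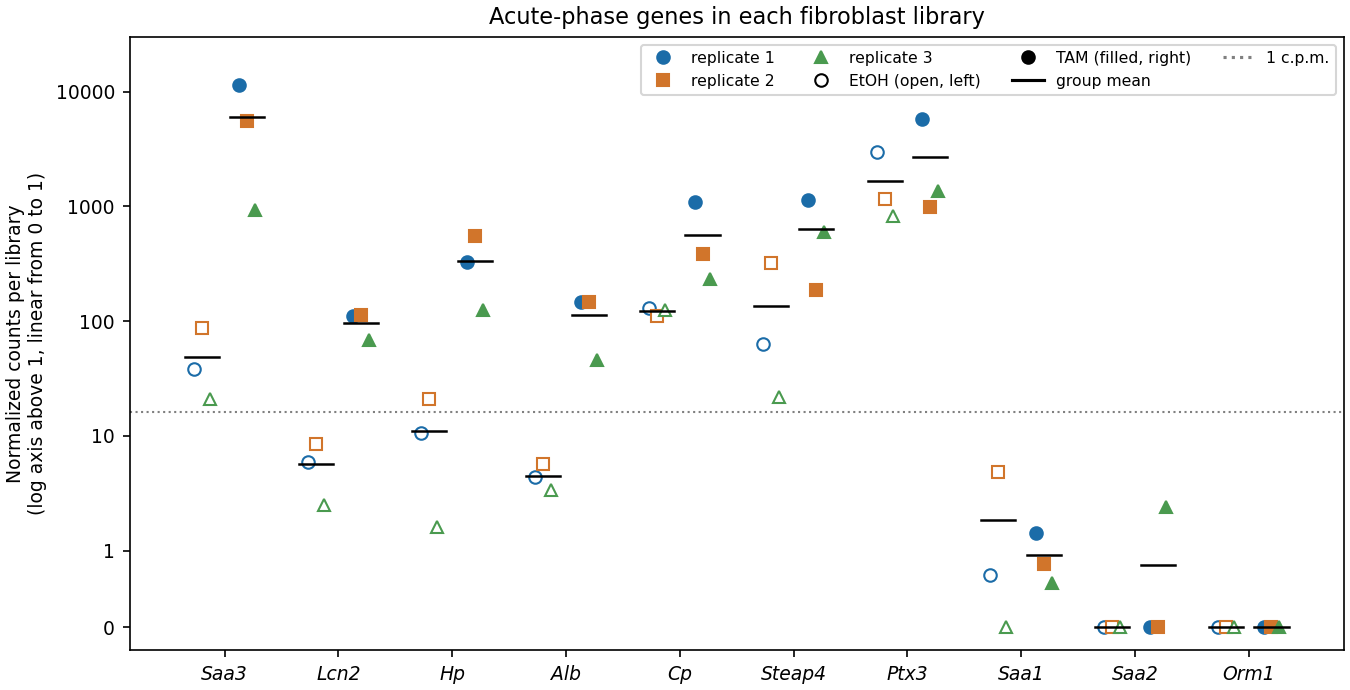
Normalized counts of the 10 acute-phase genes in each of the 6 libraries, on a log axis above 1 and a linear axis from 0 to 1. Open symbols are EtOH, filled symbols TAM, symbol shapes the replicate number, black bars the group means and the dotted line 1 c.p.m. For Saa3, Lcn2, Hp, Alb and Cp all TAM symbols lie above all EtOH symbols.

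Of the 7 genes that passed the filter, 5 (Saa3, Lcn2, Hp, Alb and Cp) had no overlap between the groups, with TAM higher, beside 9.19% of all genes tested. The same 5 were above their EtOH partner in all 3 pairs, beside 18.3% of all genes tested. These counts come from the contrast on which the genes were chosen, and nothing is read from them.

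**Figure D3:**
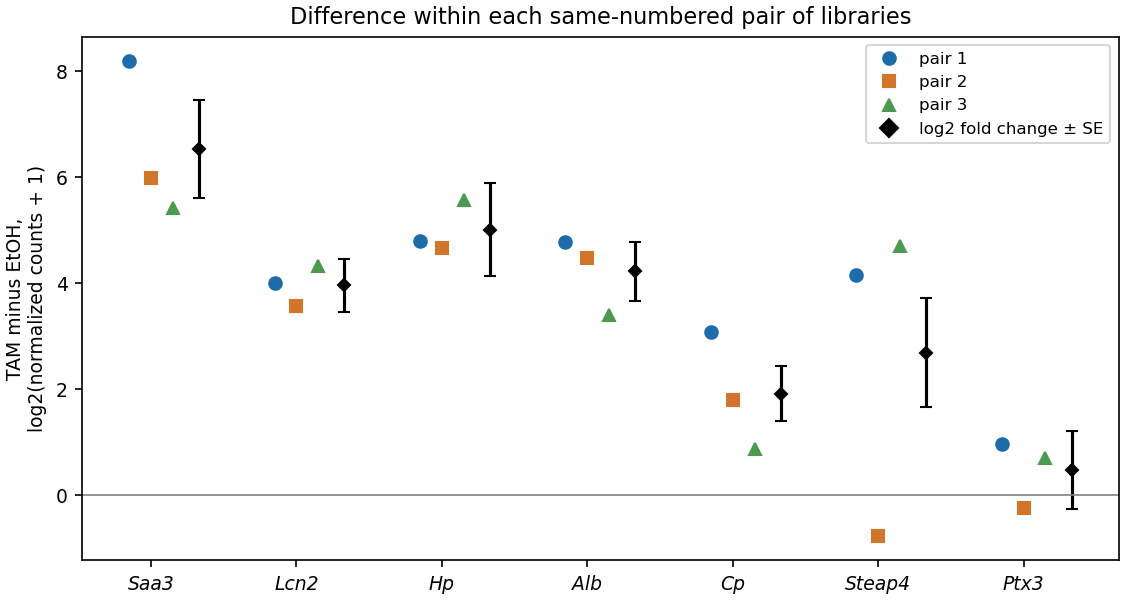
Difference between the TAM and EtOH library of the same replicate number, in log2(normalized counts + 1), for the 7 genes that passed the filter. Coloured symbols are the pairs, and black diamonds with bars are the log2 fold change ± SE without the block. Pair 2 lies below 0 for Steap4 and Ptx3 and above 0 for the other 5 genes.

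The EtOH libraries were ordered alike for most of these genes. EtOH_2 was the highest EtOH library for Saa3, Lcn2, Hp, Alb and Steap4, that is for 5 of 7, beside 40.1% of all genes tested. EtOH_3 was the lowest for 6 of 7, all but Cp, beside 27.7% of all genes tested. Lcn2 and Alb lay below 1 c.p.m. in every EtOH library, and Hp did so in EtOH_1 and EtOH_3. The order of the EtOH libraries for these genes may therefore rest on a few reads. Among the TAM libraries TAM_1 was highest for Saa3, Cp, Ptx3 and Steap4 (29.1% of all genes tested) and TAM_2 for Lcn2, Hp and Alb (42.4%). TAM_3 was highest for 0 of the 7 (28.5%).

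Over the 6 libraries log2(normalized counts + 1) of Saa3, Lcn2, Hp and Alb correlated with Pearson's r of 0.96 to 0.99 for each pair of genes. Ptx3 had an r of 0.30 to 0.61 with the others. These are descriptions over 6 points that fall into 2 groups, and any gene that differs between the groups shares much of the pattern. The genes most like Saa3 were Slc9a3r1 (r = 0.997), a scaffold protein, Cxcl5 (r = 0.997), a neutrophil-attracting chemokine, and Prr7 (r = 0.993). In all 71 genes outside the set had an r above 0.95 with Saa3.

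Lcn2 was most like Mtus2 (r = 0.996), Kcnj2 (r = 0.993) and Fam59b (r = 0.993). Hp was most like Fam59b (r = 0.996), Vnn1 (r = 0.995), a pantetheinase, and Il6 (r = 0.992). Alb was most like Mdga1 (r = 0.994), Parm1 (r = 0.993) and Eng (r = 0.993), which encodes endoglin. For Cp the list was Xpr1 (r = 0.993), a phosphate exporter, Zfp2 (r = 0.986) and Bmp1 (r = 0.984), a procollagen proteinase. For Ptx3 it was Atxn2 (r = 0.986), Mmp27 (r = 0.981) and Adam23 (r = 0.977). Steap4 was most like Ebf4 (r = 0.982), Colec12 (r = 0.978) and a gene with no symbol in the table (r = 0.976).

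Levels were compared between genes per kilobase of exon. In the EtOH libraries Ptx3 was highest, at 857 normalized counts per kb (432 to 1533), followed by Saa3 at 91.6 (39.8 to 163) and Steap4 at 43.3 (20.1 in EtOH_1, 103 in EtOH_2 and lowest in EtOH_3). The levels per kb were 12.7 for Cp, 8.23 for Hp, 2.46 for Lcn2 and 2.19 for Alb. Ptx3 was above Saa3 in every library of the group, whereas the ranges of Saa3 and Steap4, of Steap4 and Cp, of Cp and Hp, of Hp and Lcn2, and of Lcn2 and Alb overlapped.

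In the TAM libraries Saa3 was highest, with a mean of 11264 normalized counts per kb (1767 to 21605). Its percentile among the genes tested went from 42.4 in EtOH to 99.7 in TAM. Ptx3 followed at 1402 (511 to 2996), and the ranges of these genes overlapped. The ranges of the other 5 genes lay below that of Ptx3. Hp was at 249 (92.0 to 412), Steap4 at 204 (60.0 to 361), Cp at 59.3 (24.1 to 114), Alb at 55.4 (22.2 to 72.2) and Lcn2 at 42.2 (29.9 to 48.8), each of these ranges overlapping the next. For Lcn2 and Cp the exons of all transcripts together are longer than their longest coding transcript, by whose length the TAM levels would be 106 and 124 per kb. On the scale of whole libraries Saa3 averaged 370 c.p.m. in TAM, and Hp averaged 20.7 c.p.m. there.

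Related genes were taken from 5 lists of the acute phase and of iron handling. Of the 110 genes listed, 108 were in the table and 67 passed the filter. None of the 67 was called by limma without the block in either direction, 3 were called higher with it (Il6, Il1rn and Vnn1) and 0 lower. By unadjusted p-values under 0.05, 13 of the 67 passed with a rise and 3 with a fall, beside 6.67% and 6.70% of all genes tested. Without EtOH_2 the count of those higher was 22, and without TAM_1 it was 8. The count of those lower was 1 without EtOH_1 and with library sum scaling, 6 without TAM_3 and 5 with the block. TAM lay wholly above EtOH for 10 of them and wholly below for 5, beside 9.19% and 11.4% of all genes. The median log2 fold change was 0.31, and that of all genes tested was −0.03.

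Of the 5 related lists, that of other positive acute-phase proteins, those that rise in the acute phase, had the highest median. The lists were chosen with earlier results of these data known, so nothing is read from this order. Of 34 listed genes 18 passed the filter, with a median log2 fold change of 1.07, and by unadjusted p-values under 0.05 there were 7 rises and 0 falls. Vnn1 had 18.5, 20.0 and 5.15 normalized counts in EtOH and 162, 221 and 65.8 in TAM, a log2 fold change of 3.30 (SE 0.64, limma adjusted p = 0.114, and adjusted p = 0.0215 with the block). Il1rn, the natural antagonist of the IL-1 receptor, had 11.4, 6.61 and 3.39 in EtOH and 79.4, 41.9 and 30.6 in TAM, a log2 fold change of 2.68 (SE 0.58, limma adjusted p = 0.145, and adjusted p = 0.0461 with the block). Both were called with the block alone, and Il1rn passed the filter solely through the 3 TAM libraries. Serpina3f, of the antichymotrypsin family, had a log2 fold change of 3.25 (limma adjusted p = 0.185, and adjusted p = 0.0559 with the block), and 8.6% of its 50-base windows recur in paralogs. Among genes made mainly by the liver, Fgg, a fibrinogen chain, and Hamp2, a hepcidin, were listed at 0 in all libraries.

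In many of these genes pair 2 went the other way, as in Steap4 and Ptx3. TAM was above EtOH in pairs 1 and 3 and below it in pair 2 for 11 of the 18 other positive acute-phase genes, among them C3, Lbp, Serpina3n, Mt1 and Mt2, and for 10 of the 23 inducers and their signalling genes. Of all genes tested 11.7% had this pattern, which was picked out after the values were seen. C3, the central complement component, had 134, 731 and 119 normalized counts in EtOH and 2122, 695 and 1239 in TAM. Saa3, Lcn2, Hp, Alb and Cp did not share the pattern.

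The cytokines, receptors and transcription factors that drive the acute phase were, apart from Il6, called in neither fit. Of 28 listed genes 27 were in the table, 23 passed the filter, and their median log2 fold change was 0.32. Il6 had 5.16, 7.56 and 0 normalized counts in EtOH and 66.7, 138 and 26.2 in TAM, with a log2 fold change of 4.08 (SE 0.97, limma adjusted p = 0.170, and adjusted p = 0.0332 with the block). It passed the filter solely through the TAM libraries, and its log2 fold change was 2.42 with a pseudocount of 10, 5.29 with one of 0.1 and 3.13 without EtOH_3. Osmr, the receptor subunit for oncostatin M, had 2571, 3090 and 1467 normalized counts in EtOH and 5422, 4809 and 6997 in TAM and did not pass the test (log2 fold change 1.32, limma adjusted p = 0.160, and adjusted p = 0.156 with the block). Cebpa, a member of the C/EBP family, had a log2 fold change of 1.66 (limma adjusted p = 0.273), with 288 normalized counts in TAM_1 and 60.3 to 100 in the other TAM libraries, and it was 1.04 without TAM_1. The IL-1 genes Il1a and Il1b and Tnf stayed below the filter, with at most 15.1 normalized counts in any library, and Osm was listed at 0.

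Receptors and binding partners of the proteins in the set had a median log2 fold change of −0.08 over 12 of 19 genes, and limma called 0 of the 12 with or without the block, with 2 higher and 2 lower by unadjusted p-values under 0.05. The 3 with the largest differences were Slc40a1 (ferroportin, the iron exporter, −2.02, limma adjusted p = 0.393), Cubn (cubilin, an endocytic receptor, 1.26, adjusted p = 0.371) and Ager (the receptor for advanced glycation end products, −1.25, adjusted p = 0.373). Without TAM_2 these were −1.0 for Slc40a1, 0.81 for Cubn and −0.68 for Ager. The formyl peptide receptor Fpr2, a receptor of serum amyloid A, was listed at 0 in all libraries, and Cd163, the haptoglobin-haemoglobin receptor, did not exceed 5.20 normalized counts.

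Genes of iron and haem handling, the field in which Lcn2, Hp, Cp and Steap4 act, had a median of 0.09 over 17 of 23 genes, with 0 called by limma in either fit and 1 higher by an unadjusted p under 0.05. Beside Slc40a1, the largest differences were those of Bdh2, an enzyme of mammalian siderophore synthesis (−0.99, limma adjusted p = 0.487, and −0.35 without TAM_2), and of Steap2, a metalloreductase related to Steap4 (0.93, limma adjusted p = 0.223). Negative acute-phase proteins, which the liver makes less of in the acute phase, mostly lay below the filter. Of the 13 listed, 1 passed the filter, Igf1, with a log2 fold change of −0.10 (SE 0.55, limma adjusted p = 0.960), while Alb, a negative acute-phase protein itself, was higher in every TAM library.

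**Figure D4:**
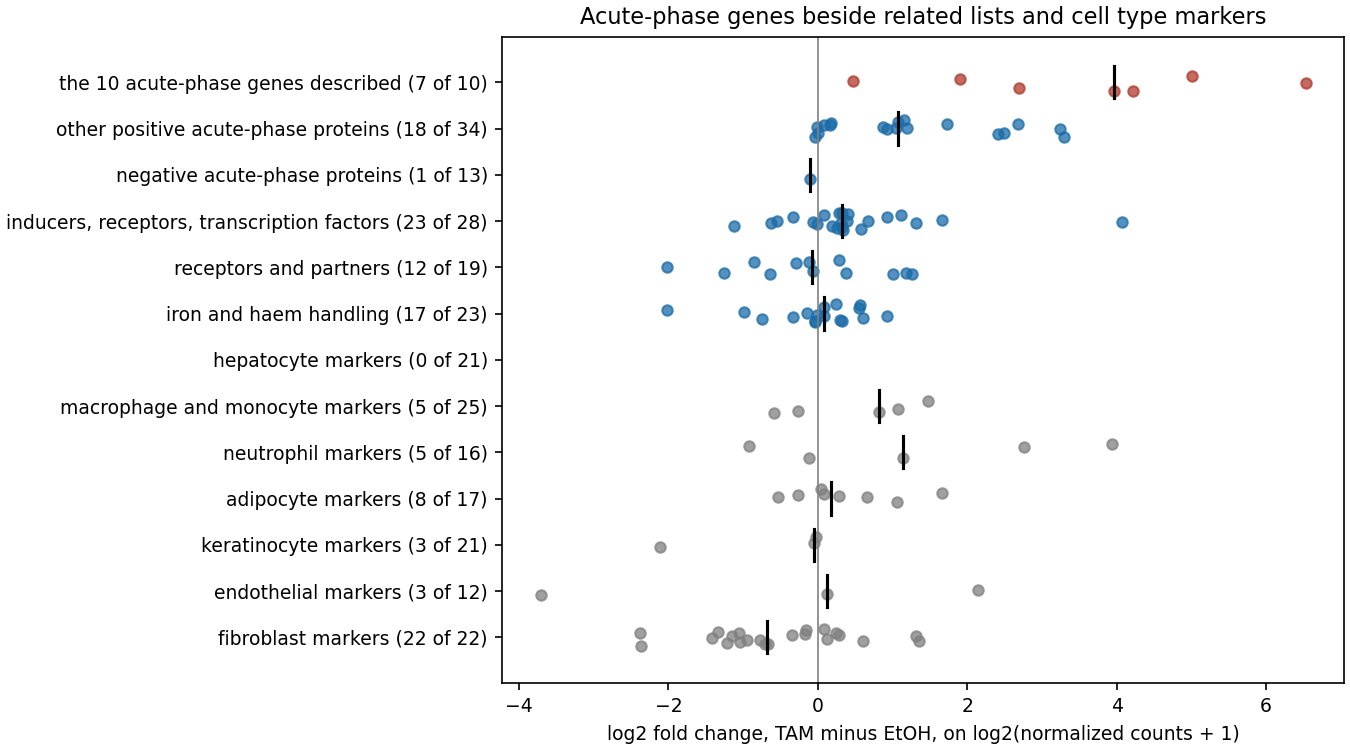
Log2 fold change, TAM minus EtOH, of each gene that passed the filter (points) in the acute-phase set, the 5 related lists and 7 lists of cell type markers, with the median of each list as a black bar where a gene passed and the number that passed of those listed in brackets. The set described was chosen on this difference. Its points spread from 0.47 to 6.53, and those of the 5 related lists from −2.02 (Slc40a1) to 4.08 (Il6). Its median is 3.96, and the medians of the 5 related lists lie between −0.10 and 1.07.

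Markers of cell types that make these proteins were checked. Of the 21 hepatocyte markers reported 0 passed the filter, 18 stayed under 10 normalized counts in every library, and Ttr, Afm, Fgg, Hnf4a and Cyp3a11 were at 0. Their summed level was 18.6 to 54.7 in EtOH and 15.1 to 49.3 in TAM, with at most 21.1 for Apoh and 20.9 for Serpina1a. All 22 fibroblast markers passed the filter, with sums of 2659118 to 2735857 in EtOH and 1653664 to 2026531 in TAM. Their median log2 fold change was −0.68, and 11 of the 22 lay wholly below EtOH and 3 wholly above, beside 11.4% and 9.19% of all genes. By limma 0 were called in either fit, with 3 higher and 7 lower by unadjusted p-values under 0.05.

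Macrophage and monocyte markers summed to 231 to 597 normalized counts in EtOH and 420 to 616 in TAM. Of the 25 listed, 23 were in the table and 5 passed the filter, with Cd68 highest in mean over the 6 libraries (49.5 to 352, the highest in EtOH_2), and Emr1, Tyrobp, C1qa, C1qb, C1qc and Msr1 were at 0. Lyz2 and Csf1r, named after their values were seen, lay above EtOH in all TAM libraries (log2 fold changes 1.48 and 0.82). None of the 5 lay wholly below, and the shares of all genes were 9.19% above and 11.4% below. Cd14 (1.08), Aif1 (−0.26) and Cd68 (−0.59) overlapped between the groups. Neutrophil markers summed to 110 to 392 in EtOH and 230 to 610 in TAM, with 5 of 16 listed genes past the filter, S100a9, Mpo, Ltf, Retnlg and Itgb2l at 0, and Cxcr2 highest in mean over the 6 libraries (53.8 to 347). Camp, Cxcr2 and Mmp8, named on the same ground, lay above EtOH in all TAM libraries, beside the same share of all genes. Mmp9 and Prtn3, which passed the filter too, overlapped between the groups, with log2 fold changes of −0.12 and −0.92. Camp and Mmp8 passed the filter solely through the TAM libraries, and Mmp8 was called with the block alone (limma adjusted p = 0.146, and adjusted p = 0.0429 with the block). The part of these markers in the values of Saa3, Lcn2 and Hp was not tested.

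Adipocyte markers, of which 8 of 17 passed the filter, summed to 16746 to 33915 in EtOH and 5618 to 39938 in TAM, most of it Lpl, with Lep at 0. Keratinocyte markers (3 of 21) summed to 109 to 121 in EtOH and 105 to 384 in TAM, the highest in TAM_2, where Ivl was at 153, with Krt10 at 41.0 to 59.1 over the 6 libraries and Krt1, Krt6a, Krt6b and Dsc3 at 0. Endothelial markers (3 of 12) summed to 198 to 539 in EtOH and 258 to 1051 in TAM, most abundant in Flt1, with Cldn5 at 0. Kdr was called lower with the block alone (limma adjusted p = 0.0608, and adjusted p = 0.0488 with the block). Flt1 and Egfl7, which passed the filter too, overlapped between the groups, with log2 fold changes of 2.15 and 0.12, and were called in neither fit. The part of these marker lists in the values of the set was not tested either.

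The genes beside Saa3, Hp, Lcn2 and Alb on the chromosome were then listed, a comparison added after the data were seen. Saal1 lies 1.3 kb from Saa3 and had means of 220 and 198 normalized counts in EtOH and TAM (log2 fold change −0.12, limma adjusted p = 0.864), and Hps5, on the far side of the cluster, had 488 and 482. Of the 10 genes tested within 500 kb of Saa3, 0 lay wholly above EtOH in TAM and 1 wholly below, beside 9.19% and 11.4% of all genes. Around Hp, Txnl4b, Dhx38 and Dhodh had log2 fold changes of −0.06, 0.08 and −0.21, with limma adjusted p-values of 0.950, 0.860 and 0.766, and of the 9 tested within 500 kb 1 lay wholly above and 0 below. Around Lcn2, of 31 tested, 9 lay wholly above EtOH and 2 wholly below. Afp, which neighbours Alb and is expressed with it in fetal liver, had means of 0.323 and 0.273.

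Farther from Alb, on the same chromosome, sits a cluster of chemokines of which Cxcl5 starts 298.4 kb away. Cxcl5 had 115, 130 and 62.7 normalized counts in EtOH and 2508, 1466 and 554 in TAM (log2 fold change 3.68, limma adjusted p = 0.0628, and adjusted p = 0.0184 with the block). Ppbp and Cxcl1 of this cluster overlapped between the groups. Their log2 fold changes were 3.70 and 3.82 (limma adjusted p = 0.303 and 0.240, and adjusted p = 0.0416 and 0.0420 with the block). Of the 7 genes tested within 500 kb of Alb, 3 lay wholly above EtOH in TAM and 0 wholly below, beside the same 9.19% and 11.4%. The 3 were Cxcl5, Ankrd17 (log2 fold change 0.29) and Mthfd2l (0.51).

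**Figure D5:**
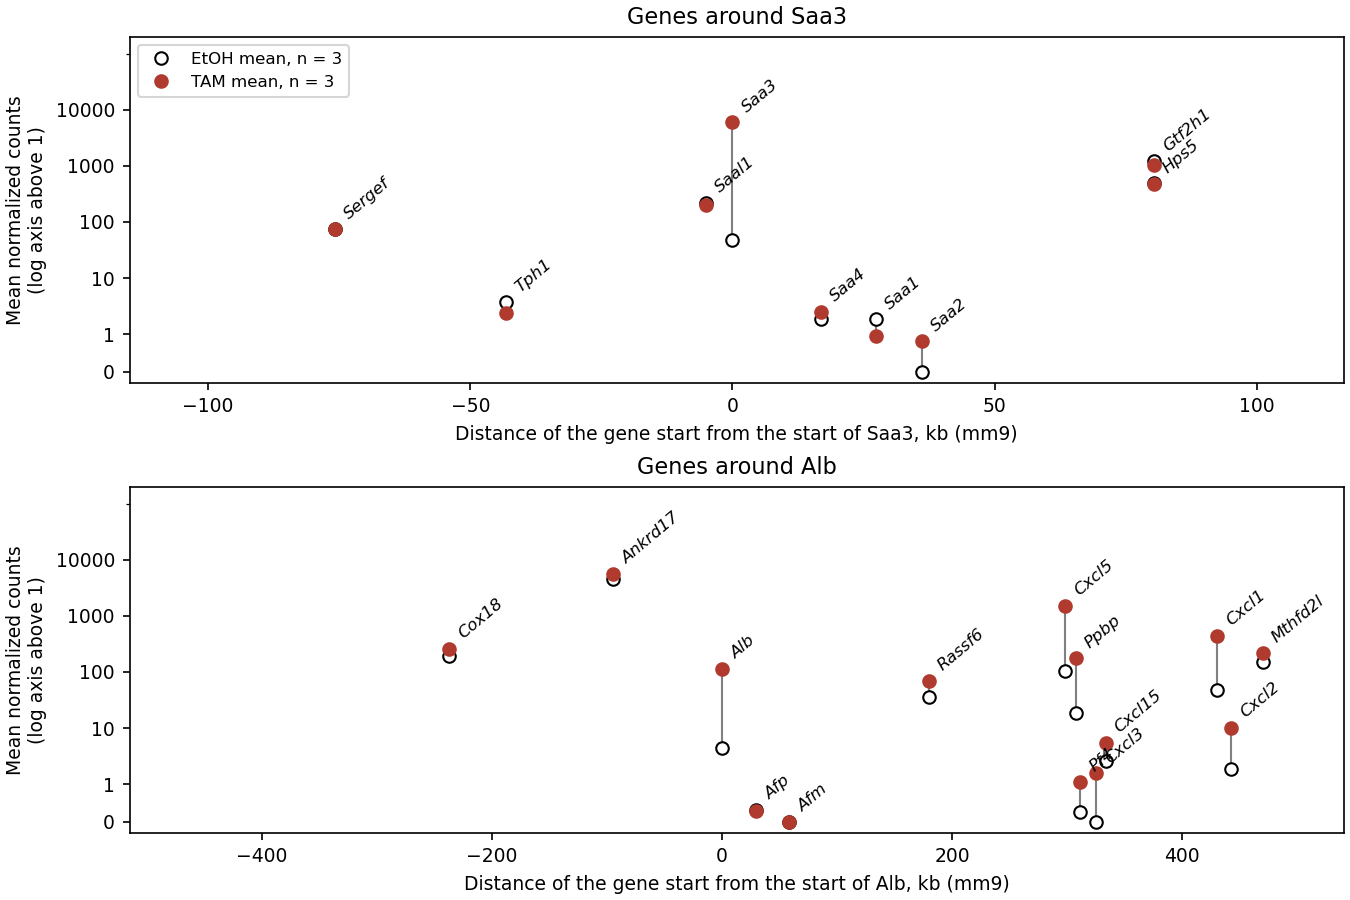
Mean normalized counts of the genes around Saa3 (upper panel) and Alb (lower panel) in EtOH (open circles) and TAM (filled circles, n = 3 each), on a log axis above 1, by the distance of their start from that of Saa3 or Alb in kb of mm9. Around Saa3 the EtOH and TAM circles of Saal1 and Hps5 nearly coincide, and at 298.4 kb from Alb and beyond Cxcl5 and other chemokine genes have higher TAM means.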

How the data were processed

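Poly(A) RNA of 6 MSF libraries, 3 TAM and 3 EtOH, was analysed. The authors mapped reads to mm9 with TopHat, counted them with htseq-count and used edgeR. The signal deposited by the authors is 1 table of normalized counts, which are not whole numbers, so that no read totals or counting intervals were available and limma was used. The precision is that of 3 libraries against 3.

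Genes that reached 1 c.p.m. (16.2 normalized counts) in 3 or more of 6 libraries were fitted in limma 3.58.1 (R 4.3.3) on log2(value + 1) with a trend, over all 6 libraries and without covariates. Benjamini-Hochberg adjusted p-values under 0.05 were called. The model was run on simulated data in which libraries of a group varied less than they did for Saa3, Hp, Steap4 and Ptx3. The simulated spread was also below that of Alb and Cp in TAM and of Lcn2 in EtOH. That run cannot show how the model does at the spread of these genes. Libraries sharing a replicate number deviated together from their group means (r = 0.24, 0.29 and 0.42 across genes, against −0.31 to 0.04 for unlike numbers), so a fit with a replicate block was added. As deviations from a mean of 3 libraries sum to 0, positive values for like numbers push those for unlike numbers down. The contrast between them is therefore partly built in. The pairing comes from the numbers in the labels. Alternatives were scalings by library sum or median ratio, no filter, pseudocounts of 0.1 and 10, and leaving out each library.

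The genes described, the related lists, the marker lists and the motifs were chosen with earlier results of these data known. Named genes were all 10 of the set, the called genes and up to 3 of the largest differences per related list, the 3 genes most like each by r, and the markers at 0 or most abundant. Some hepatocyte markers are not reported here and were left out of their list. The mm9 annotation held 22148 of the 22162 genes, and its exons gave lengths and overlaps. Promoters were taken from a RefSeq table on GRCm38.p6, and no coordinates were moved between builds. The sequence of proteins was not used here. Python 3.11.15 with pandas 2.3.3 and matplotlib 3.10.9 drew the plots.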

Additional observations from a re-analysis of the deposited data

How the results depend on the processing

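The number of genes called higher in TAM was 20 without and 119 with the replicate block, and those lower 9 and 73. Without the filter on low values they were 45 and 3, and leaving out 1 library gave 0 to 6 and 0 to 9. Among the related acute-phase lists the calls were 0, then 3 with the block and 1 without the filter, F12, a coagulation factor that lies below the filter and is named after its values were seen. Their genes higher at an unadjusted p under 0.05 were 8 to 22, and those lower 1 to 6, when 1 library was left out, and those lower were 5 with the block and 1 with library sum scaling. Library sum scaling moved the median of all genes by 0.11. The cause of these shifts was not tested. Il6, Il1rn and Vnn1 passed the threshold with the block alone.

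Across the alternatives the log2 fold change of Saa3 was 5.75 to 7.56, that of Hp 3.91 to 5.68, that of Cp 1.29 to 2.41 and that of Steap4 1.81 to 3.72. Lcn2 (2.76 to 4.28) and Alb (2.94 to 4.47) were lowest with a pseudocount of 10, and without any 1 TAM library they did not pass the filter and had no value. Ptx3 was −0.30 without TAM_1. Igf1 was 0.01 with library sum scaling, and it was −0.64 to 0.48 when 1 library was left out, with a positive value of 0.18 without EtOH_3 and of 0.48 without TAM_2. On the forward strand alone the C/EBP letters were in 4 promoters and the TATA letters in 1. The unknown number of reads behind each library limits what can be said of genes with a few normalized counts.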
